A study of Mus musculus with 2 samples.

Results

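The genes described here encode the machinery that imports proteins into mitochondria, measured in white adipose tissue of 1 control and 1 Oma1-deficient sample. Members were all genes whose symbol starts with Timm or Tomm followed by a digit, together with Samm50, Mtx1, Mtx2, Immt, Chchd3, Chchd4, Chchd6, Gfer, Pmpca, Pmpcb, Dnajc19, Pam16, Grpel1 and Grpel2, where a probe set carried that symbol alone. This gave 38 of the 19938 genes named on the array. The rule used symbols and no measured value. The tissue came from mice aged 24 weeks that had been fed a high-fat diet for 20 weeks, labelled as wild type or control (Oma1_WT) or as Oma1 knockout or deficient (Oma1_KO), with 1 Affymetrix Mouse Gene 1.0 ST array each. The strain, the fat depot, the kind of Oma1 allele and whether RNA of several mice was pooled are not given in the labels. With 1 array per group the spread between animals was not measured, no test of the genotype was possible and no p-value is given.

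Most mitochondrial proteins are made in the cytosol and pass through the TOM complex of the outer membrane. From there, presequence proteins go through the TIM23 complex and are pulled into the matrix by a motor built around the mitochondrial Hsp70. Carrier proteins are escorted by small TIM chaperones to the TIM22 complex, and barrel proteins are inserted in the outer membrane by the SAM complex. Oma1 is a stress-activated protease of the inner membrane, and adipocytes depend on mitochondria both for lipid synthesis and for fatty acid oxidation. The Oma1 probe set itself read an intensity of 187 in Oma1_WT and 155 in Oma1_KO, a log2 difference of -0.27. The labels do not say where the gene was disrupted, so this value does not check them.

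Import genes differed little between the arrays. Intensities were compared as log2(intensity + 1), Oma1_KO minus Oma1_WT, a scale that understates the difference of dim genes. Genes were counted if their mean on that scale reached 83, the median intensity over all probe sets, as did 36 of the 38 members and 11394 genes in all. None of the 36 members reached a 1.5-fold difference, against 1.73% of all counted genes lower and 1.23% higher by that size. At least 1.2-fold lower were 4 members (11.1%), namely Timm10, Timm17a, Timm9 and Tomm34, against a background of 14.6%. At least 1.2-fold higher was 1 member (2.78%), Chchd4, against 7.17%. These shares were no larger than the background.

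Most members read lower in Oma1_KO, as did most of all counted genes. Of the 36 members, 27 (75%) read lower in Oma1_KO by any amount and 9 read higher, beside 62.3% lower and 36.6% higher among all counted genes. Their median difference was -0.11, beside -0.06 for all counted genes, and their quartiles were -0.15 and 0.00, beside -0.18 and 0.07. Scaling moved the members and the background together. After quantile normalisation or loess the split was 22 lower and 14 higher (61.1% lower), beside 52.6% and 52.5% of all counted genes lower. With the median of all genes set to 0 it was 21 lower and 15 higher (58.3% lower), beside 50%. The members' median was -0.05 under each of the 3 scalings, beside -0.01, -0.01 and 0.00 for all counted genes. The only spread that could be measured was that between probe sets of a gene on the same 2 arrays. It leaves out the spread between animals, RNA preparations and arrays, so it is no error bound for the difference. Within a gene, the log2 difference of a single probe set had an SD of 0.17. It was taken from the 545 counted genes with exactly 2 probe sets. Among members below the upper quartile of all probe sets, an intensity of 326, the median was -0.14 (10 genes), beside -0.05 for all genes in that range. The 26 brighter members had a median of -0.08, beside -0.06.

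**Figure D1:**
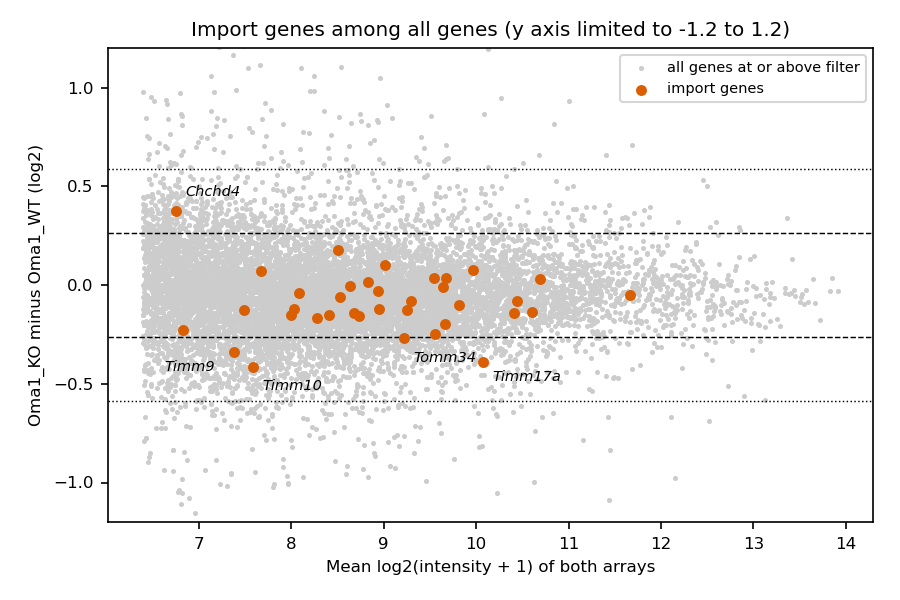
Difference between the arrays (log2, Oma1_KO minus Oma1_WT) against the mean log2(intensity + 1) of both arrays for the 11394 counted genes (grey) and the 36 counted import genes (orange). Dashed lines mark 1.2-fold and dotted lines 1.5-fold; 36 genes lie outside the plotted range of -1.2 to 1.2, and all import genes lie between -0.41 and 0.37.

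The TOM complex is the entry gate of the outer membrane. Of its 8 measured genes 7 (87.5%) read lower in Oma1_KO, with a median of -0.15. For all counted genes 62.3% read lower and the median was -0.06. Tomm20, a receptor for presequences, read 871 in Oma1_WT and 758 in Oma1_KO (-0.20), and its 2 probe sets differed by -0.19 and -0.20. Tomm22, the central receptor, read 637 and 583 (-0.13), and Tomm70a, the receptor for carrier precursors and their chaperones, 431 and 390 (-0.14). The receptors all read lower, by 0.13 to 0.20. Tomm40, the barrel that forms the pore, read 356 and 320 (-0.15), whereas its paralogue Tomm40l read 275 and 267 (-0.04). The small subunits that surround the pore were not alike. Tomm6 read 817 and 687 (-0.25), the largest difference of the complex. Tomm5 read 449 and 402 (-0.16). Tomm7, which also helps to hold the kinase Pink1 at the outer membrane, was the exception to the direction at 805 and 826 (0.04). None of the 8 reached 1.2-fold. After quantile normalisation 6 of the 8 were lower and the median was -0.08, also with loess. Of all counted genes 52.6% and 52.5% were lower under these scalings.

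Outside the complex, Tomm34, a cytosolic co-chaperone that binds Hsp70 and Hsp90 with precursor proteins, read 655 and 543 (-0.27). It was just past 1.2-fold, and 13.9% of the counted genes had a lower difference. After quantile normalisation, loess or centring on all genes it was no longer past that size. Tomm20l, a paralogue of Tomm20, was under the filter at 46 and 51 (0.15). No background level was available, so whether this reading is above background is not known.

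MICOS is the complex that shapes the cristae junctions and is physically joined to SAM. Genes of the SAM complex and of MICOS had differences from -0.13 to 0.08. Samm50, the insertase for barrel proteins, read 1627 and 1482 (-0.13). Its partners Mtx1 and Mtx2, the metaxins, read 452 and 457 (0.02), and 969 and 1023 (0.08). Immt, the core of MICOS, read 1431 and 1351 (-0.08). The MICOS subunit Chchd3 read 1639 and 1675 (0.03), and Chchd6 read 398 and 397 (0.00). None of these 6 genes reached 1.2-fold.

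The disulphide relay of the intermembrane space folds small cysteine-rich proteins, the small TIM chaperones among them, as they arrive. Its oxidoreductase Chchd4 had the highest difference of all members, at 94 in Oma1_WT and 122 in Oma1_KO (0.37), and 3.57% of the counted genes had a higher one. Chchd4 was also among the dimmest counted members, close to the filter of 83, so its difference rests on few intensity units. Gfer, the sulfhydryl oxidase that recharges Chchd4, read 376 and 361 (-0.06). Gfer equalled the median of all counted genes, and its sign followed the scaling, with 0.02 after quantile normalisation, 0.01 after loess and 0.00 after centring.

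**Figure D2:**
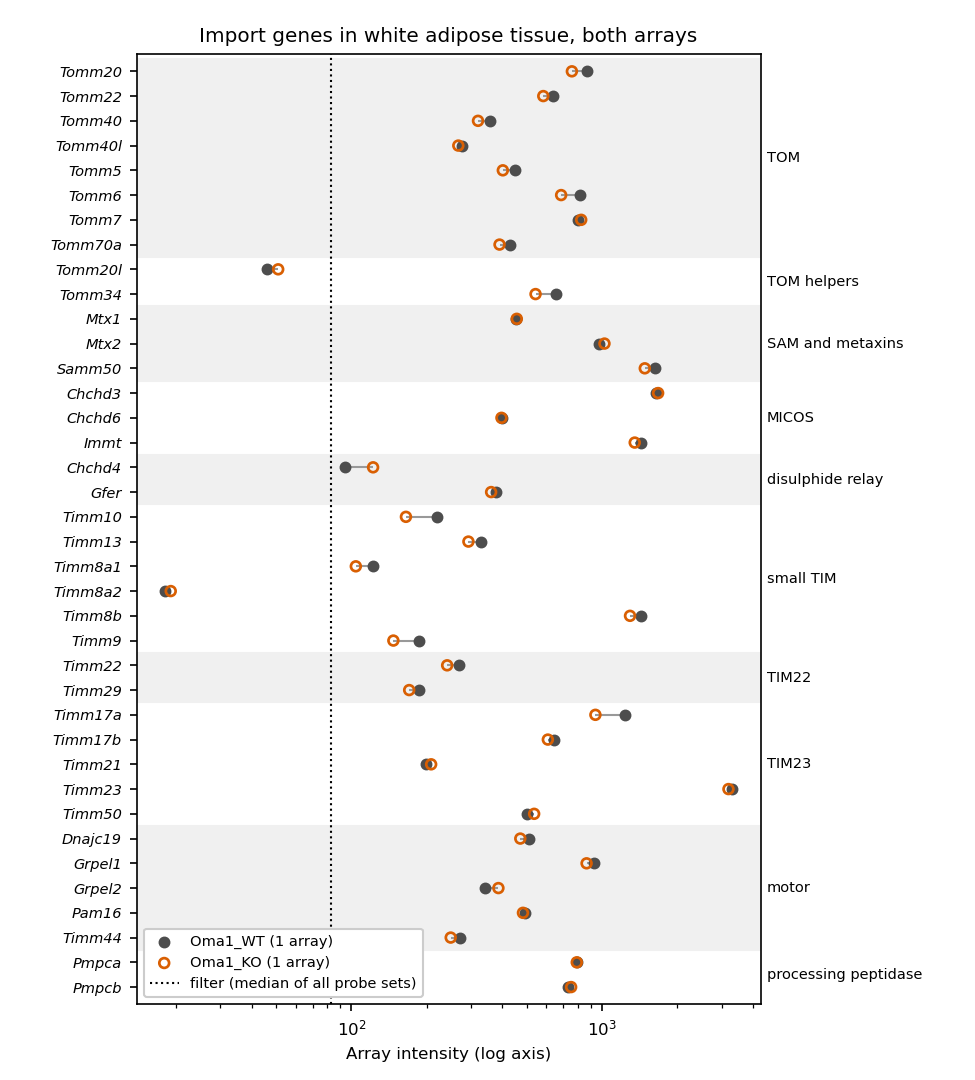
Intensity of each import gene on a log axis in Oma1_WT (filled grey) and Oma1_KO (open orange), 1 array each, grouped by role; genes with several probe sets are shown at their mean on the log scale. Members ran from 18 for Timm8a2 to 3307 for Timm23, and only Timm8a2 and Tomm20l lie under the dotted filter line at 83.

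The small TIM chaperones carry hydrophobic precursors across the intermembrane space and had a lower median than the other roles with more than 1 counted gene. All 5 counted genes read lower in Oma1_KO, with a median of -0.23, beside 62.3% lower and a median of -0.06 for all counted genes. All 5 stayed lower under each scaling tried, where the median ran from -0.17 to -0.23. Under quantile normalisation, loess and centring, 52.6%, 52.5% and 50% of all counted genes were lower. Timm9 and Timm10, which assemble with each other into the hexamer that guides carrier proteins, read 186 and 147 (-0.34), and 220 and 165 (-0.41). Timm10 had the lowest difference of all members, and 5.47% of the counted genes were lower still; for Timm9 it was 8.79%. The partner genes of the other hexamer differed less, Timm8a1 with 122.1 and 104.1 (-0.23) and Timm13 with 329 and 293 (-0.17). The 2 probe sets of Timm8a1 gave -0.21 and -0.24. Timm8b read 1430 and 1294 (-0.14). Of the 5 genes, 4 were dim, under the upper quartile of 326 on average, and only Timm8b was bright. Timm8a2 was under the filter at 18 and 19 (0.07). Timm9, Timm10 and Timm13 have 1 probe set each, so no second probe set checks their values.

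Timm22, the channel that inserts carriers in the inner membrane, read 268 and 241 (-0.15), and Timm29, another subunit of that complex, read 186 and 170 (-0.13). Their median was -0.14, and it was -0.09, -0.09 and -0.08 after quantile normalisation, loess and centring, where both stayed lower. Of all counted genes 62.3% were lower, and 52.6%, 52.5% and 50% under these scalings. Both genes have 1 probe set each and lie below the upper quartile of 326.

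The TIM23 complex forms the channel for presequence proteins, and within it 1 gene stood apart. Timm17a read 1232 in Oma1_WT and 941 in Oma1_KO (-0.39). Its 2 probe sets read 1863 and 1499 (-0.31), and 815 and 591 (-0.46), so both were past 1.2-fold. Of the counted genes, 6.37% had a lower difference than Timm17a. Timm17a and Timm17b are alternative channel subunits, and Timm17a is the one known to be removed by proteolysis in mitochondrial stress. Timm17b read 644 and 608 (-0.08). Timm23, the channel itself, was the brightest member at 3307 and 3198 (-0.05). It was represented by 4 probe sets with differences from -0.02 to -0.07, of which 2 held identical values (3460 and 3305) and so do not count as separate measurements. The receptor Timm50 read 500 and 536 (0.10), and Timm21, which links the complex to TOM and to the respiratory chain, 198 and 208 (0.07). The median of the 5 genes was -0.05, and it was 0.01 when the median of all genes was set to 0. Where a gene has several probe sets, as Timm17a, Timm23, Timm8a1, Tomm20 and Pam16 do, near-identical gene copies may share the signal, and its identity is uncertain.

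The import motor pulls chains into the matrix. Timm44, which tethers it to the channel, read 271 and 249 (-0.12). The co-chaperone Dnajc19 read 513 and 472 (-0.12). Its partner Pam16 read 493.6 and 483.7 (-0.03), and its 2 probe sets disagreed in sign, at -0.07 and 0.01. The nucleotide exchange factors of the mitochondrial Hsp70 lay on opposite sides of 0. Grpel1 read 930 and 868 (-0.10), and its paralogue Grpel2 read 341 and 386 (0.18), the second-highest difference among counted members. Neither reached 1.2-fold. For the processing peptidase, which cuts off presequences, neither gene reached 1.2-fold. Pmpca read 798 and 793 (-0.01) and Pmpcb 734 and 753 (0.04).

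**Figure D3:**
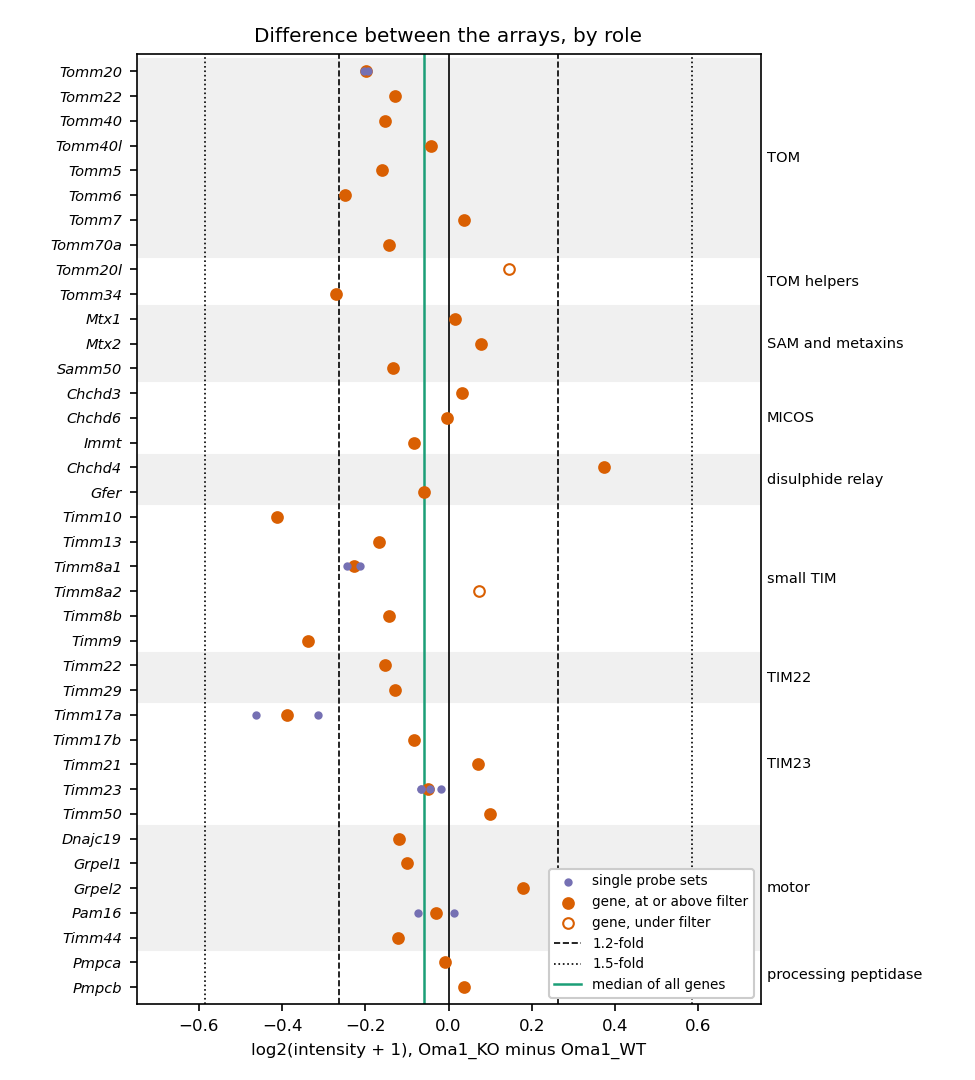
Log2 difference of each import gene (Oma1_KO minus Oma1_WT), grouped by role; open circles are under the filter, small points are single probe sets of the 5 genes with several. The green line is the median of all counted genes (-0.06), and only Timm10, Timm17a, Timm9, Tomm34 and Chchd4 lie past the dashed 1.2-fold lines.

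Other genes of import, folding and inner-membrane assembly were taken as a list of 40 symbols, of which 34 were found and 33 counted. Of these, 23 (69.7%) read lower, 9 higher and 1 equal, beside 62.3% lower among all counted genes. Their median was -0.11, beside -0.06, and it was -0.08 after quantile normalisation, -0.07 after loess and -0.05 after centring. At least 1.2-fold lower were 6 (18.2%, beside 14.6% of all counted genes), and 0 were at least 1.2-fold higher (beside 7.17%). Hspa8, the cytosolic Hsp70 that delivers precursors, was the only one past 1.5-fold, at 7427 and 4608 (-0.69). That value came from 1 of its 3 probe sets, which read 7865 and 2009 (-1.97). The other probe sets of Hspa8 read 6889 and 6606 (-0.06), and 7561 and 7371 (-0.04), and with the brightest probe set alone the gene was at -0.04. Its co-chaperone Dnaja1 read 527.8 and 414.8 (-0.35), and its probe sets gave -0.46 and -0.23. With probe sets of several symbols added Dnaja1 was at -0.04 and no longer past 1.2-fold. Nln, a mitochondrial and cytosolic oligopeptidase, read 724 and 573 (-0.34), and Ghitm, an inner-membrane protein, 1941 and 1537 (-0.34). Maip1, a partner of the matrix-side AAA protease, read 115 and 91 (-0.33). Micos10, a MICOS subunit that bends the membrane, read 325 and 262 (-0.31). Hspa9, the mitochondrial Hsp70 of the motor, read 2528 and 2239 (-0.18). The mitochondrial ribosomal proteins, nuclear-encoded like the import genes, had a median of -0.08 over 74 counted genes. Of the 74, 51 (68.9%) were lower and 10 (13.5%) at least 1.2-fold lower, beside 62.3% and 14.6% of all counted genes. No test of a difference between these lists and the import genes was made.

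**Figure D4:**
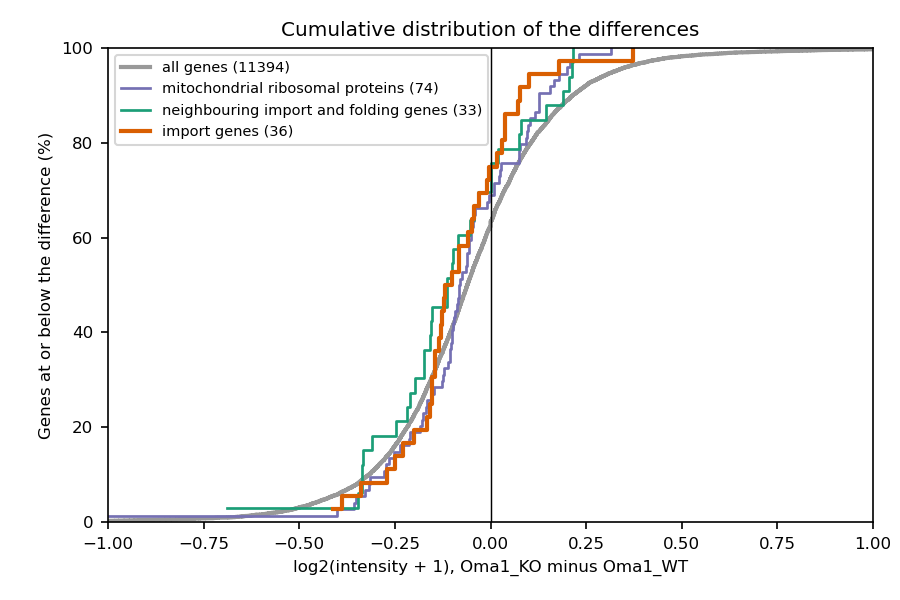
Cumulative share of genes (percent) by log2 difference, Oma1_KO minus Oma1_WT, for the 36 import genes, 33 neighbouring import and folding genes, 74 mitochondrial ribosomal proteins and all 11394 counted genes. The curves of the 3 shorter lists run close to each other, with medians of -0.11, -0.11 and -0.08 beside -0.06 for all genes. The x axis runs from -1 to 1, and some of all genes lie beyond it.

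Cell type markers also differed between the samples. In bulk tissue, fewer cells of a type and less RNA per cell cannot be told apart. All 8 adipocyte markers were above the filter, and 7 of them read lower, their summed intensity being 57896 in Oma1_WT and 51401 in Oma1_KO. The 6 endothelial markers were all lower (7199 and 5623), as were 5 of 6 mesothelial markers (2072 and 1388) and the 3 measured B cell markers (695 and 447). Of the B cell markers 2 were above the filter, both lower (600 and 381). Among all counted genes 62.3% were lower and 36.6% higher. All 7 liver markers were higher (3484 and 8232), and 5 of 7 macrophage markers were (15394 and 17240). Of 6 brown adipocyte markers 4 were higher (1636 and 1997), but only 3 of the 6, all higher, were above the filter (1502 and 1851). Of 6 skeletal muscle markers 4 were higher (557 and 635), most of that difference being Pvalb, under the filter at 44 and 110, and the 3 above the filter summed to 436 and 454. No marker had an intensity of 0. The brown adipocyte marker Dio2, under the filter, read 45 on both arrays. The part of these differences in the values of the import genes was not tested.

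The promoters of import genes were examined for letters they share. RefSeq (GRCm38.p6) windows from 250 bases before to 50 after the annotated start were matched to 34 of the 38 members, 32 of them among the 36 counted, and both strands were searched. The letters CCGGAAG, the core recognised by ETS factors such as GABPA, a regulator of nuclear genes for mitochondria, occurred in 14 of these 32 members (43.8%). Among the 9107 counted genes with a window the share was 19.3%, and among all 27025 genes with a window 9.93%. The letters GCGCANGCG of NRF1, another such regulator, occurred in 6 (18.8%), beside 15% of counted genes and 7.03% of all. The YY1 letters AAGATGGCG occurred in 2 (6.25%), beside 3.51% and 1.64%. The median difference was -0.09 in the 14 members with the CCGGAAG letters and -0.14 in the 18 without. Among all counted genes it was -0.08 with the letters and -0.06 without. A match is a description of the sequence and not a measured site.
The 250 bases before the start are shown for the 5 members past 1.2-fold, to set the hexamer partners Timm10 and Timm9, and the lower members and Chchd4, beside each other. They are written 5′ to 3′ on the gene's strand, with matches to these letters or their reverse complement in capitals. The windows are chr2:84826771-84827020 (plus strand) for Timm10, chr12:71136676-71136925 (minus) for Timm9, chr1:135313738-135313987 (minus) for Timm17a, chr2:164071170-164071419 (minus) for the more upstream of the starts of Tomm34, and chr6:91473424-91473673 (minus) for Chchd4.
Timm10: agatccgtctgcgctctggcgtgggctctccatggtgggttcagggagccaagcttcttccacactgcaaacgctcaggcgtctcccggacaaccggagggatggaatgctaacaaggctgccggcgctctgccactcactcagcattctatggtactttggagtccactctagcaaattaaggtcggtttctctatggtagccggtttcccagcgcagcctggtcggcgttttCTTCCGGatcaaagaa
Timm9: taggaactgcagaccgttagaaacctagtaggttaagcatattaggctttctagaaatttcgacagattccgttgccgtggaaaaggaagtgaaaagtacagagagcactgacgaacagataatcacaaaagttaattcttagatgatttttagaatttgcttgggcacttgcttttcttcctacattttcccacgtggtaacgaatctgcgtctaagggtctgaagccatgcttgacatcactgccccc
Timm17a: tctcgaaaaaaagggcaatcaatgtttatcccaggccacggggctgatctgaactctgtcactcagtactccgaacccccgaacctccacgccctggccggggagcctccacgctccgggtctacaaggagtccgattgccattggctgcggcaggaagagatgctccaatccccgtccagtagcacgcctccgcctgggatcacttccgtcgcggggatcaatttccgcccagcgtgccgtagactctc
Tomm34: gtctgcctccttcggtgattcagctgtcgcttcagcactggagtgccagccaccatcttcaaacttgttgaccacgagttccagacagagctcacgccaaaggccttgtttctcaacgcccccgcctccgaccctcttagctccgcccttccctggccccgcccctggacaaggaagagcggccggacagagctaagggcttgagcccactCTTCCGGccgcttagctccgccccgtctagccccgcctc
Chchd4: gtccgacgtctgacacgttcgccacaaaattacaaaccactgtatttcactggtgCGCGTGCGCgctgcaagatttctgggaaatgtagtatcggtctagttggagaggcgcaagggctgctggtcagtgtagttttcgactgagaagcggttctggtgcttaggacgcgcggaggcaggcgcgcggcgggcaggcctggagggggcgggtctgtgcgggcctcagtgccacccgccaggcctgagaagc
The counts given before also cover the 50 bases after the start, which are not printed. In that full window Timm10 had 3 matches to the ETS letters, of which 1 lies before the start. The stretch of Timm10 holds the ETS letters from 16 to 10 bases before the start and that of Tomm34 from 39 to 33 bases before it. That of Chchd4 holds the NRF1 letters from 195 to 187 bases before the start. Those of Timm9 and Timm17a hold none of the searched letters, so the 4 lower members did not share a match.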

How the data were processed

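The values deposited by the authors are linear intensities in whole numbers, 1 for each of 35512 probe sets and each array. How they were summarised and scaled is not given in the sources used here. Both arrays had a median of 83, and values ran from 8 to 21216 (Oma1_WT) and 21365 (Oma1_KO). Names came from GEO's platform annotation, in which 21789 probe sets had a single gene symbol, 1621 several and 12102 none, and those with several or none were left out, 1 of which names a gene that fits the rule. Values were transformed to log2 with a pseudocount of 1 and averaged over the probe sets of a gene (45 for the 38 members), with no further normalisation. Sizes of 1.2-fold and 1.5-fold describe the differences, since 1 array per group allows no test. Every member was named, with Oma1, the 6 neighbouring genes of largest absolute difference, and Hspa9, outside the rule, which was added after its value was seen as the motor's Hsp70. Members and lists were chosen with earlier results of these data known. The procedure was tested on simulated data with planted changes larger than any of the members', in genes well above the filter. That does not check the 1.2-fold counts or the dim genes. Alternatives were quantile normalisation, loess (span 0.3), centring on all counted genes, the brightest probe set, a pseudocount of 16, other filters, and adding probe sets with several symbols. Promoters came from RefSeq, GRCm38.p6. Precision is limited by the number of arrays. Python 3.11.15, numpy 2.4.6, pandas 2.3.3, statsmodels 0.14.6 and matplotlib 3.10.9 were used.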

Additional observations from a re-analysis of the deposited data

How the results depend on the processing

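No paired analysis was possible because each group held 1 array, and no array could be left out. All alternatives were planned. Single-gene differences were followed for 45 genes, which were the members, the 6 neighbouring genes of largest absolute difference, and Oma1. Hspa9 was not among them. Each of the 45 stayed within 0.17 of its main difference under quantile normalisation, loess, centring and a pseudocount of 16. The exceptions under other choices were Hspa8, at -0.04 with the brightest probe set, and Dnaja1, at -0.04 with probe sets of several symbols added. The count of 9 higher import genes became 14 with quantile normalisation, 14 with loess and 15 with centring. With the filter at the upper quartile, which leaves 26 members, 2 members were lower by 1.2-fold or more and 0 were higher by that size, since Chchd4, Timm9 and Timm10 are dimmer than that filter. The counts at 1.5-fold stayed at 0 under every alternative, and the other counts stayed within 1.5 times. The median of the import genes, -0.11, was -0.05 with quantile normalisation, loess and centring, and between -0.12 and -0.08 otherwise. Dim genes, small TIM genes among them, lie nearest to background.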
